A study of Mus musculus with 8 samples.

Results

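Immediate early transcription factors were followed through liver regeneration in 10 genes, Egr1, Fos, Fosb, Jun, Junb, Jund, Atf3, Ier3, Myc and Klf6. They were chosen by name: every array probe whose transcript accession belongs to 1 of these genes was taken, which gave 14 of the 41174 probes on the array and 10 of the 14142 genes tested. Jund is the least inducible of the Jun genes, and Ier3 encodes no transcription factor but a small survival protein of the same early response.

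Immediate early genes are those that a cell switches on straight after a growth signal or stress, from transcription factors that are already present and without new protein synthesis. Fos and Jun family proteins pair through leucine zippers to form the transcription factor AP-1, while Egr1 and Klf6 are zinc finger factors and Myc pairs with Max to drive growth genes. In liver they are known for a brief burst right after part of the organ is removed, ahead of the entry of hepatocytes into the cell cycle, and mice without Jun in their hepatocytes regenerate the liver poorly.

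Total RNA of whole mouse liver was hybridised to 8 single-colour arrays, 1 for each of 2 genotypes at 0, 24, 36 and 48 h after partial hepatectomy, the surgical removal of part of the liver. The Mxcre-positive livers are Survivin deleted and the Mxcre-negative livers Survivin wild type, in the design the submitters gave. Mxcre is a Cre recombinase under the Mx1 promoter, which interferon or poly(IC) turns on in hepatocytes and in many other cell types. All mice of both genotypes were of the mixed strain 129/SV/B6, carried transplanted bone marrow after irradiation 2 months earlier, and had received poly(IC) 1 week earlier. Sex is recorded only as either one for all samples, and no label tells if 1 mouse or a pool went onto an array. A protocol note places the liver analysis 1 week after surgery, and the times in the sample titles were used here. There were no replicate arrays within a genotype and time, so p-values rest on the spread between the genotypes after their mean difference.

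Survivin mRNA (Birc5) checked the labels: its log2 signal lay between -3.49 and -1.20 in Mxcre-positive liver and between -0.55 and 5.03 in Mxcre-negative liver, and at 0, 24, 36 and 48 h alike it was lower in Mxcre-positive liver. The 8 hepatocyte markers measured were above background on all 8 arrays. The 0 and 24 h arrays lay on 1 slide and the 36 and 48 h arrays on the other. Between 60.2% and 66.0% of the 43379 spots were well above background on each array. The mean log2 signal of 4 Y-linked genes lay between -6.63 and -6.09 on both 0 h arrays and on the Mxcre-positive 36 and 48 h arrays, and between -1.56 and -0.76 on the other 4 arrays, so it differed between 24 h and 0 h in both genotypes, and its part in the changes was not tested beyond the covariate fit given below. Xist, an RNA of female cells, was above background on all 8 arrays. Its log2 signal lay between 5.10 and 5.49 on the arrays with the low Y-linked signal. On the other 4 arrays it lay between 2.32 and 4.37. Levels below are log2 signals minus the same array's 75th percentile, so that 0 is the brightness that 75% of the spots stay below and 1 unit is a 2-fold step. Such levels can be compared between arrays for 1 gene, not between genes, whose probes differ in brightness at the same amount of RNA.

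Promoter windows of 8 members (all but Egr1 and Myc) were read from RefSeq on build GRCm38.p6, each with 250 bases before and 50 from the annotated start. They are shown for 5 of the genes whose 6 later arrays all lay above both 0 h arrays, with matches to the searched motifs in capitals, 5′ to 3′ on the gene's strand. Fos lies on the plus strand at chr12:85473640-85473939, Jun on the minus strand at chr4:95052173-95052472, Atf3 on the minus strand at chr1:191183284-191183583, Ier3 on the plus strand at chr17:35821463-35821762 and Klf6 on the plus strand at chr13:5861239-5861538.
Fos: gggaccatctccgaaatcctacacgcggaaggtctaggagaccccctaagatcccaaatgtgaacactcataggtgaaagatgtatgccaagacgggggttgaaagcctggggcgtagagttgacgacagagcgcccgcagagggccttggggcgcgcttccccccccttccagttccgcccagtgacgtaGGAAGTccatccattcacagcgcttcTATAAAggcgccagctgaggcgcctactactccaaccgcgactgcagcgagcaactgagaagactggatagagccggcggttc
Jun: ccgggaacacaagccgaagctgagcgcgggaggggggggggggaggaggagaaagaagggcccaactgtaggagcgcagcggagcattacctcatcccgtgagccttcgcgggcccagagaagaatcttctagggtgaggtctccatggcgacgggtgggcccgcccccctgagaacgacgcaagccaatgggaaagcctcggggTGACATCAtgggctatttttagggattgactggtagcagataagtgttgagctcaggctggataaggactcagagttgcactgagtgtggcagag
Atf3: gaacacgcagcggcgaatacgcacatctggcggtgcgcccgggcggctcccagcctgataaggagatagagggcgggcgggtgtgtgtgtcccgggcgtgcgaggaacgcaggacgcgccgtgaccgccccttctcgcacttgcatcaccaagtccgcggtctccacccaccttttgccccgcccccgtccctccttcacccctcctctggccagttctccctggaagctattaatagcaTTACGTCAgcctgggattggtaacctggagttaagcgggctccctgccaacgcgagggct
Ier3: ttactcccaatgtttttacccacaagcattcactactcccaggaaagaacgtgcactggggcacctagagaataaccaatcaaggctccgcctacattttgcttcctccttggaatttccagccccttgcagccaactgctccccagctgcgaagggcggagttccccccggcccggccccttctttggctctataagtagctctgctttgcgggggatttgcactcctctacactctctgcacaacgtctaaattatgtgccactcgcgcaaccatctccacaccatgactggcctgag
Klf6: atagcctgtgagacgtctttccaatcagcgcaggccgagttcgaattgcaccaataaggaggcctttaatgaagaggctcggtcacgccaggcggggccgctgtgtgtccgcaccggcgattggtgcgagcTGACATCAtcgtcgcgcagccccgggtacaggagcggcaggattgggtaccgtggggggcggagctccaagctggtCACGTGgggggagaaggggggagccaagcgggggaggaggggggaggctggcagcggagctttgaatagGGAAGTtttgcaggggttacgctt

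Both strands were searched for the CArG box, which serum response factor binds, for the cyclic AMP response element TGACGTCA and the AP-1 site TGANTCA, for the Egr sites GCGTGGGCG and GCGGGGGCG, for the TATA box TATAAA, for GGAAGT of the Ets family and for CACGTG, which Myc with Max can bind. TGACNTCA and TNACGTCA were added after the sequences had been read. Both cover TGACGTCA, and the other motifs do not contain one another. Jun and Klf6 held TGACNTCA (2 of 8 members, against 8.83% of the 32851 windows of all genes). In Jun it lies at bases -45 to -38 from the start and in Klf6 at bases -119 to -112. Atf3 held TNACGTCA at bases -10 to -3, and 2.93% of all windows did. The Fos window held TATAAA at bases -33 to -28 and GGAAGT at bases -59 to -54, and the Ier3 window held none of the 10 motifs.

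Klf6 held CACGTG at bases -43 to -38, a letter string found in 7.15% of all windows, and GGAAGT from base 27 counted from the start. Fosb held GCGGGGGCG (1 of 8 members, 2.91% of all windows). Junb held TATAAA at its annotated start and GGAAGT before it, so 2 of 8 members had TATAAA (13.6% of all windows) and 3 of 8 had GGAAGT (23.8%). No member window held the CArG box (1.63% of all windows), TGACGTCA (1.79%), TGANTCA (7.81%) or GCGTGGGCG (0.612%). These windows are short, and the strings describe the sequence, not binding.

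The first question the design answers is how these genes stood a day after hepatectomy. At 24 h against 0 h, Egr1, Fos, Jun, Junb and Jund rose, by between 1.81-fold and 10.95-fold, and none of the 10 genes fell. Egr1 is a zinc finger factor induced by growth factors, Fos and Jun are the founding partners of AP-1, and Junb and Jund are the Jun relatives that often oppose Jun in growth control. These 5 of 10 members stand beside 4.43% of all tested genes called higher and 5.26% called lower (limma, Benjamini-Hochberg adjusted p under 0.05). The median difference over the 10 members was 1.72 on the log2 scale, beside -0.03 over all genes tested.

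Egr1 had levels of -0.34, 3.08, 3.57 and 3.15 at 0, 24, 36 and 48 h in Mxcre-positive liver, and of 0.65, 4.13, 3.59 and 3.35 in Mxcre-negative liver. Both 0 h arrays were far below the other 6, whose lowest value was 3.08. The 24 h difference from 0 h was 3.45 ± 0.31 (log2, fitted SE, adjusted p = 0.0179), and Egr1 stood at rank 59 by size of increase among the 14142 genes. Its difference was 3.42 ± 0.31 at 36 h (adjusted p = 0.0162) and 3.09 ± 0.31 at 48 h (adjusted p = 0.0119). The Egr1 signal stayed high on every later array of both genotypes.

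Fos had levels of -4.00, -2.15, -2.02 and -1.87 at 0, 24, 36 and 48 h in Mxcre-positive liver, and of -3.62, -1.05, -1.56 and -2.01 in Mxcre-negative liver. The later arrays were all above the 0 h arrays. Fos rose 4.63-fold at 24 h (2.21 ± 0.30 log2, adjusted p = 0.0262), 4.05-fold at 36 h (adjusted p = 0.0252) and 3.65-fold at 48 h (adjusted p = 0.0229). The size of these differences depended on how background was removed, as given in the closing section. The Fos probe was spotted 10 times on each array, and the SD of those spots, a technical spread within an array, lay between 0.07 and 0.31. The residual SD of Fos between arrays was 0.36. Fosb, a Fos relative best known for its long-lived splice form in neurons, was not called at any time. Its levels were -2.81, -2.80, -3.30 and -3.02 in Mxcre-positive liver and -2.94, -2.77, -3.07 and -3.24 in Mxcre-negative liver, a range of 0.53 over all 8 arrays. The Fosb difference from 0 h was 0.09 at 24 h (95% interval -0.31 to 0.49, adjusted p = 0.738).

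Jun, the partner of Fos in classical AP-1, had levels of -1.29, 0.17, 0.48 and 0.20 at 0, 24, 36 and 48 h in Mxcre-positive liver, and of -1.67, 0.24, 0.18 and 0.17 in Mxcre-negative liver. The 6 later arrays lay within 0.17 to 0.48, above both 0 h arrays. Jun rose by 1.68 ± 0.16 at 24 h (adjusted p = 0.0179), by 1.81 ± 0.16 at 36 h (adjusted p = 0.0162) and by 1.66 ± 0.16 at 48 h (adjusted p = 0.0108). The residual SD of Jun, 0.15 on the log2 scale, was below the median of all genes, 0.19.

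Jund had levels of 3.78, 4.64, 4.49 and 4.51 at 0, 24, 36 and 48 h in Mxcre-positive liver, and of 3.80, 4.64, 4.50 and 4.69 in Mxcre-negative liver. The genotypes were nearly on top of each other, with a residual SD of 0.06. Its rise was the smallest of the called members, 0.85 ± 0.12 at 24 h (1.81-fold, adjusted p = 0.0269), 0.70 ± 0.12 at 36 h (adjusted p = 0.0300) and 0.81 ± 0.12 at 48 h (adjusted p = 0.0194).

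Junb, by the brighter of its 2 probes, had levels of 2.78, 4.92, 4.97 and 4.41 at 0, 24, 36 and 48 h in Mxcre-positive liver, and of 3.85, 4.88, 4.93 and 4.996 in Mxcre-negative liver. It rose by 1.58 ± 0.32 at 24 h (adjusted p = 0.0486), by 1.64 ± 0.32 at 36 h (adjusted p = 0.0374) and by 1.38 ± 0.32 at 48 h (adjusted p = 0.0469). The other probe had levels of 3.75, 4.54, 4.62 and 3.92 in Mxcre-positive liver and of 3.75, 4.76, 4.40 and 4.70 in Mxcre-negative liver. It gave a smaller increase, 0.90 at 24 h (adjusted p = 0.0922), 0.76 at 36 h (adjusted p = 0.108) and 0.56 at 48 h (adjusted p = 0.192), none past the threshold. The probes disagreed most on the Mxcre-positive 0 h array, at 2.78 and 3.75.

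**Figure D1:**
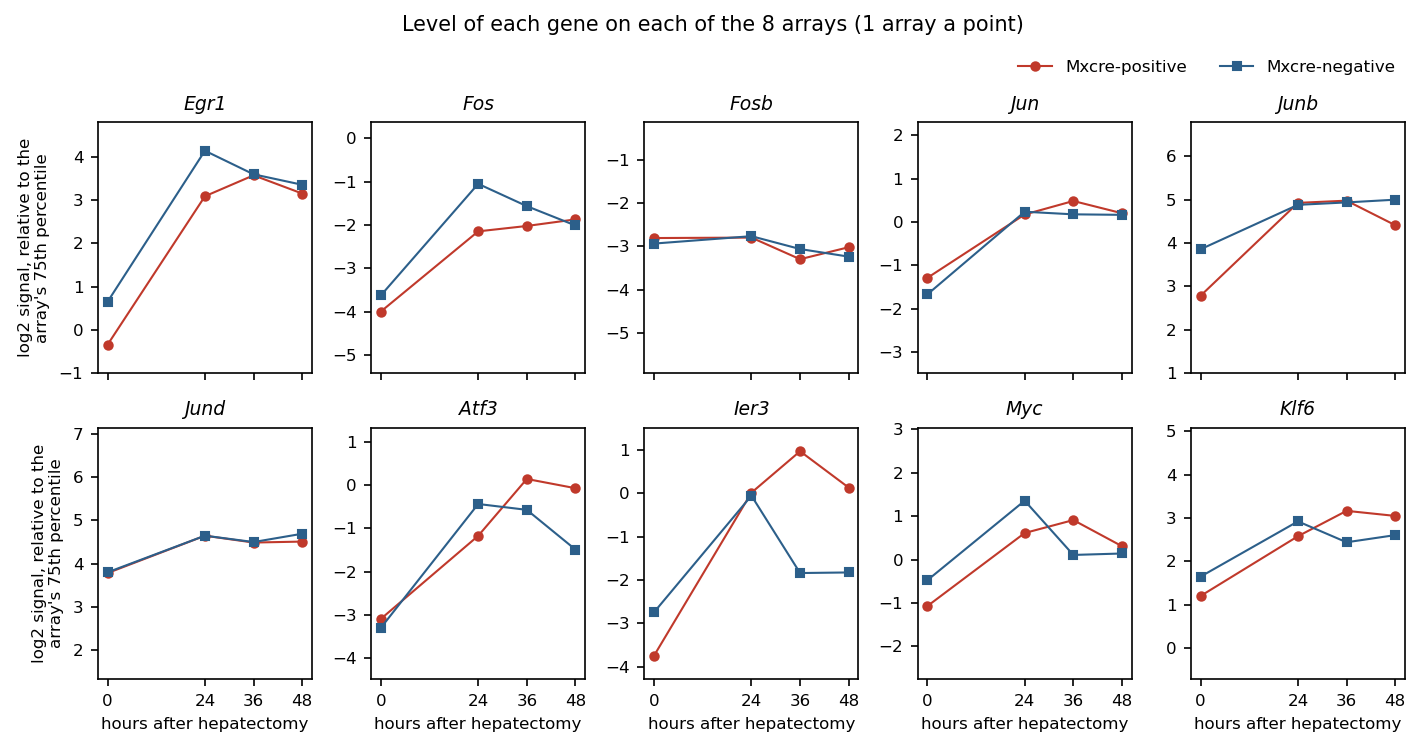
Log2 signal above or below the array's 75th percentile (vertical axis, the same span of units in each panel) against hours after hepatectomy for the 10 genes, with circles for Mxcre-positive and squares for Mxcre-negative liver and 1 array a point. In all panels but that of Fosb, the 6 later points lie above both 0 h points.

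Atf3, a stress-induced factor that pairs with Jun proteins, had levels of -3.09, -1.18, 0.14 and -0.08 at 0, 24, 36 and 48 h in Mxcre-positive liver, and of -3.30, -0.44, -0.58 and -1.49 in Mxcre-negative liver. The later arrays of both genotypes lay at -1.49 or higher, and both 0 h arrays at -3.09 or lower. Its 24 h difference of 2.39 ± 0.51 missed the threshold (adjusted p = 0.0548). At 36 h Atf3 had risen 7.86-fold (2.98 ± 0.51, adjusted p = 0.0308), and at 48 h 5.32-fold (2.41 ± 0.51, adjusted p = 0.0401).

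Myc had levels of -1.07, 0.61, 0.91 and 0.31 at 0, 24, 36 and 48 h in Mxcre-positive liver, and of -0.48, 1.36, 0.11 and 0.14 in Mxcre-negative liver. The later arrays were all above both 0 h arrays, but the order of the times differed between the genotypes. Its difference from 0 h was 1.76 ± 0.41 at 24 h (adjusted p = 0.0634), 1.28 ± 0.41 at 36 h (adjusted p = 0.0941) and 1.00 ± 0.41 at 48 h (adjusted p = 0.155). The other Myc probes gave 1.68 (adjusted p = 0.0668) and 0.62 (adjusted p = 0.222) at 24 h, and the dimmest of the 3 gave -0.04 at 48 h (adjusted p = 0.931).

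Klf6, a Krüppel-like factor with growth-restraining roles in liver, had levels of 1.20, 2.58, 3.16 and 3.05 at 0, 24, 36 and 48 h in Mxcre-positive liver, and of 1.65, 2.92, 2.44 and 2.60 in Mxcre-negative liver. All later arrays were above both 0 h arrays. Its difference from 0 h was 1.33 ± 0.34 at 24 h (adjusted p = 0.0745), 1.38 ± 0.34 at 36 h (adjusted p = 0.0551) and 1.40 ± 0.34 at 48 h (adjusted p = 0.0515). Its other probe gave 1.30, 1.40 and 1.42 at those times (adjusted p = 0.0799, 0.0581 and 0.0547).

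Ier3, a small protein known to temper apoptosis, had levels of -3.74, 0.01, 0.97 and 0.13 at 0, 24, 36 and 48 h in Mxcre-positive liver. In Mxcre-negative liver its levels were -2.74, -0.05, -1.84 and -1.83. The 2 genotypes met at 24 h, after which Mxcre-positive liver stayed near or above 0 and Mxcre-negative liver stood close to -1.8. With a residual SD of 1.23 it was the most variable of the 10 genes, and its difference from 0 h of 3.22 ± 0.97 at 24 h (9.33-fold) was not called (adjusted p = 0.102). The 36 h and 48 h differences of 2.81 and 2.40 were not called either (adjusted p = 0.107 and 0.149).

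**Figure D2:**
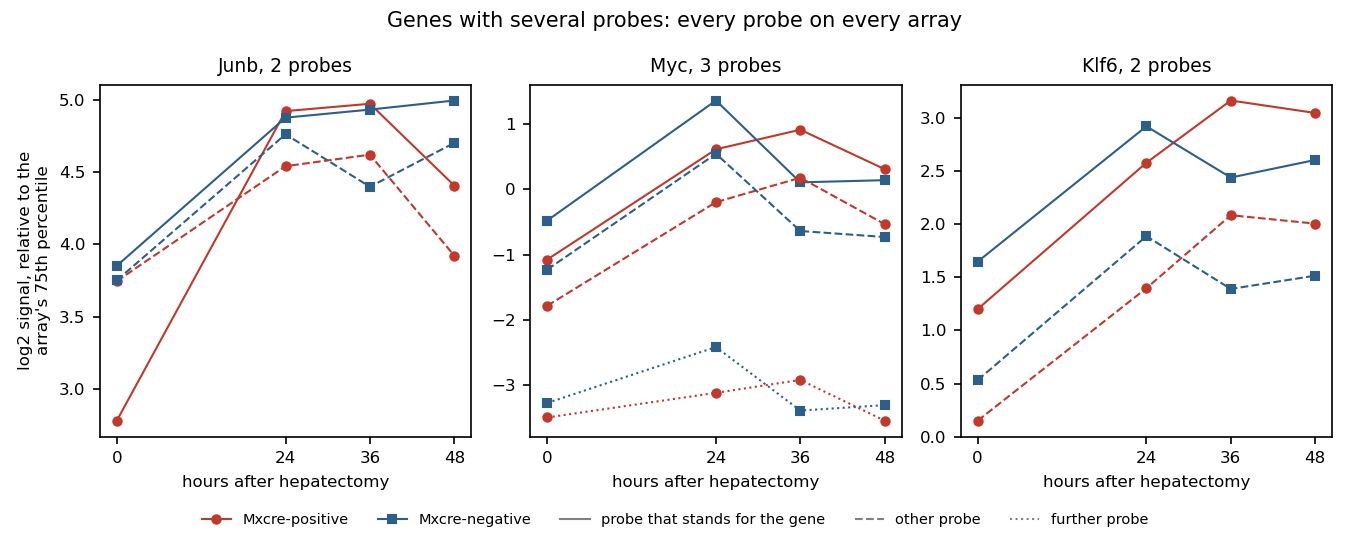
Every probe of Junb, Myc and Klf6 on every array, as log2 signal above or below the array's 75th percentile against hours after hepatectomy, with line styles for the probes, circles for Mxcre-positive and squares for Mxcre-negative liver. The Klf6 probes run in parallel, while the Junb probes part on the Mxcre-positive 0 h array, at 2.78 and 3.75.

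At 36 h against 0 h the 5 genes called at 24 h were called again and Atf3 joined them, so that 6 of 10 members rose and none fell, beside 7.83% of all genes called higher and 8.64% called lower. The same 6 were called at 48 h, beside 8.12% higher and 9.6% lower. For 9 of the 10 members, all but Fosb, the 6 later arrays lay above both 0 h arrays, which held for 18.1% of all genes tested. All of these comparisons share the same 2 arrays at 0 h. Markers of other liver cells moved over the same times. At 24 h 3 of 5 biliary markers rose and 0 fell (list median 1.26). Spp1, among these 3, also stands in the list of AP-1 and Egr1 targets below. Of 9 T and NK cell markers 3 fell and 0 rose (list median -1.39). These counts stand beside 4.43% of all genes called higher and 5.26% called lower at 24 h. Gzma and Cd3g among the 3 that fell, and the uncalled Klrd1, were above background on the 2 arrays at 0 h only. They entered the test through those arrays, and their later values are background, so these calls carry little weight. B cell markers had a median of -1.06 and neutrophil markers one of 0.48, with none called. The part of these cells in the rise of the members was not tested.

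Between the later times none of the 10 genes passed the test. The share of all genes called was 0.212% at 36 h against 24 h and 0.106% at 48 h against 36 h. The differences over both genotypes lay between -0.48 for Myc and 0.59 for Atf3 at 36 h against 24 h, and between -0.57 for Atf3 and 0.11 for Jund at 48 h against 36 h. The 95% intervals were wide for the variable genes, for instance -2.93 to 2.10 for Ier3 at 36 h against 24 h, and narrow for Jund, -0.46 to 0.15.

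**Figure D3:**
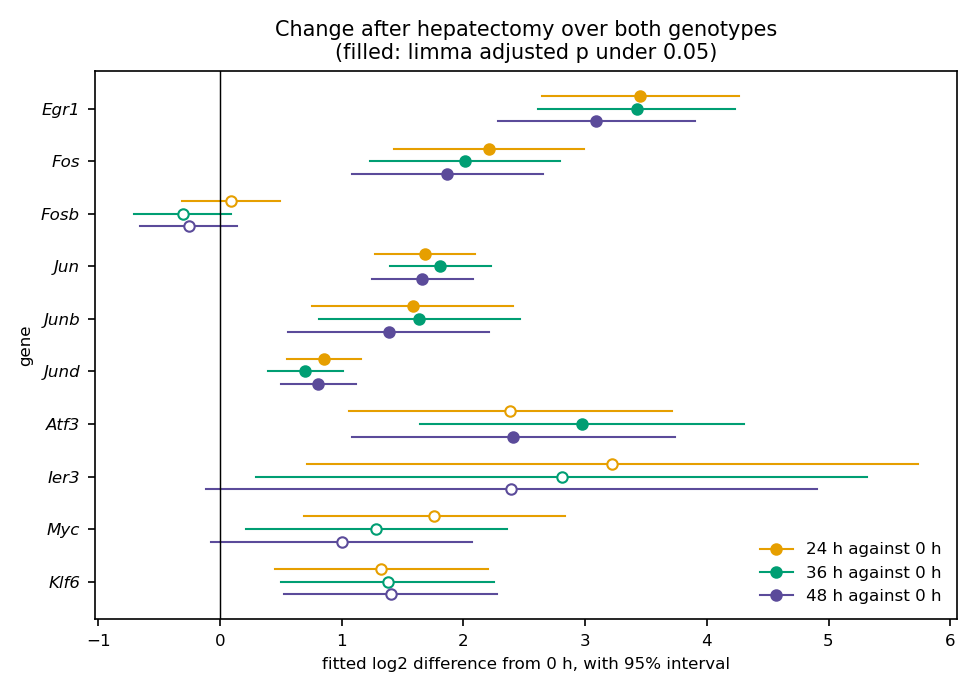
Fitted log2 difference from 0 h over both genotypes (horizontal axis, points with 95% intervals) for the 10 genes at 24, 36 and 48 h, filled where the limma adjusted p is under 0.05. Egr1, Fos, Jun, Junb and Jund are filled at all 3 times, Atf3 at 36 and 48 h, and Fosb lies near 0.

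The rise at 24 h was measured on 1 slide, whereas 36 and 48 h against 0 h cannot be told apart from slide. Leaving out 1 array removed calls across the whole test, which then has fewer residual degrees of freedom. At 24 h, leaving out either 0 h array or either 24 h array left 0 of the 10 genes called, and of all 14142 genes 152 without the Mxcre-negative 0 h array and 0 in the other 3 refits, beside 1370 in the full fit. At 36 h and at 48 h, leaving out either 0 h array or either array of that time removed all or most of the member calls. Calls over all 14142 genes fell in these refits too. Some genes stayed called when a 0 h array was left out, and at 48 h when a 48 h array was left out. Fitting the 4 arrays of the first slide alone left 0 of the 10 members and 0 of the 14142 genes called at 24 h, and adding the Y-linked signal as a covariate left 0 of the 10 members and 1 of the 14142 genes, with fitted differences of 3.45 and 4.29 for Egr1. At 36 and 48 h that covariate left 6 members called at either time, Egr1, Fos, Jun, Atf3, Ier3 and Klf6. Of all 14142 genes it left 1033 called at 36 h and 1195 at 48 h. Ier3 was called with that covariate (adjusted p = 0.0424 at 36 h and 0.0403 at 48 h) and so was Klf6 (0.0402 and 0.0322). Junb (0.0752 and 0.102) and Jund (0.0644 and 0.0566) were not. The Y-linked signal differed between 24 h and 0 h in both genotypes, and between the genotypes at 36 and 48 h. At 24 h against 0 h it can thus hardly be told apart from time, and at 36 and 48 h from genotype. What the calls with the covariate owe to that layout was not tested. The Egr1 difference at 24 h was between 3.13 and 3.78 whichever array was left out, and every one of the called differences kept its sign when 1 array was left out.

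The second question is whether Survivin deletion changed these genes. Over the 4 times none of the 10 was called between Mxcre-positive and Mxcre-negative liver, and neither was any other gene (0% of 14142 genes by limma, with 931 genes and 0 of the 10 at an unadjusted p under 0.05). The fitted differences, Mxcre-positive minus Mxcre-negative, ran from -0.57 ± 0.22 for Egr1 (95% interval -1.14 to 0.01, adjusted p = 0.751) to 0.96 ± 0.69 for Ier3 (95% interval -0.82 to 2.73, adjusted p = 0.781). For Jund the interval was -0.27 to 0.16. Survivin mRNA (Birc5), lower in Mxcre-positive liver at each time, was not called in this fit either, so the fit can miss a real difference.

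Within single times, with 1 array a genotype and no test, 7 of the 40 differences reached 2-fold. At 0 h these were Junb, at 2.78 in Mxcre-positive and 3.85 in Mxcre-negative liver, and Ier3, at -3.74 in Mxcre-positive and -2.74 in Mxcre-negative liver, beside 6.19% of all genes past 2-fold. The other Junb probe gave 3.75 in both livers at 0 h. At 24 h they were Egr1, at 3.08 in Mxcre-positive and 4.13 in Mxcre-negative liver, and Fos, at -2.15 in Mxcre-positive and -1.05 in Mxcre-negative liver, beside 4.24% of all genes. Both were lower in Mxcre-positive liver, by 1.05 and 1.10 on the log2 scale.

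At 36 h Ier3 alone passed 2-fold, at 0.97 in Mxcre-positive and -1.84 in Mxcre-negative liver, a 7.01-fold difference, beside 7.65% of all genes past 2-fold. At 48 h Ier3 stood at 0.13 in Mxcre-positive and -1.83 in Mxcre-negative liver (3.88-fold), and Atf3 at -0.08 in Mxcre-positive and -1.49 in Mxcre-negative liver (2.67-fold), beside 8.3% of all genes. The Y-linked signal of those 2 times was -6.47 and -6.63 in Mxcre-positive liver against -1.56 and -0.76 in Mxcre-negative liver, and its part in the Ier3 and Atf3 differences was not tested. The median difference over the 10 members was -0.41, -0.20, 0.17 and 0.15 at the 4 times in turn, beside -0.02, 0.01, -0.04 and -0.03 over all genes.

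Among the 10 genes, Ier3 had the largest difference between its genotype contrasts after and before hepatectomy, 1.61 on average at 24, 36 and 48 h against -1.001 at 0 h. That interaction was 2.61 ± 1.17 (95% interval -0.67 to 5.90) and was not called (limma adjusted p = 0.831). For Junb it was 0.90 ± 0.36 (95% interval -0.10 to 1.91, adjusted p = 0.782), and none of the 10 was called, beside 0.17% of all genes. Seen within each genotype, Ier3 at 36 h stood 26.2-fold above 0 h in Mxcre-positive liver and 1.87-fold above it in Mxcre-negative liver.

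Neutrophil markers differed between the genotypes too. The median of the 10 markers measured was lower in Mxcre-positive liver by 3.06 at 0 h and 0.87 at 24 h on the log2 scale, and higher by 1.21 at 36 h and 1.80 at 48 h, with 0, 2, 7 and 9 of the 10 higher. Their summed log2 signal ran from 2.99 to 6.35 in Mxcre-positive liver and from 4.57 to 5.98 in Mxcre-negative liver, and the 10 markers were above background on all arrays except Mmp8 and Elane on the Mxcre-positive 0 h array, Ngp and Camp on the Mxcre-positive 24 h array and Elane on the Mxcre-negative 24, 36 and 48 h arrays. Macrophage markers had medians of -0.72, -0.45, 0.89 and 0.29 for Mxcre-positive minus Mxcre-negative liver at 0, 24, 36 and 48 h, and hepatocyte markers medians between -0.32 and 0.03. In whole liver, more cells of a type and more RNA per cell cannot be told apart, and the part of these cells in the Ier3, Atf3, Fos and Egr1 differences was not tested. The 10 heat shock chaperones were all higher in Mxcre-positive liver at 0 h (median 1.21). On that array Ier3 was lower, and so was Junb by its brighter probe only. The part of the chaperones was not tested.

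**Figure D4:**
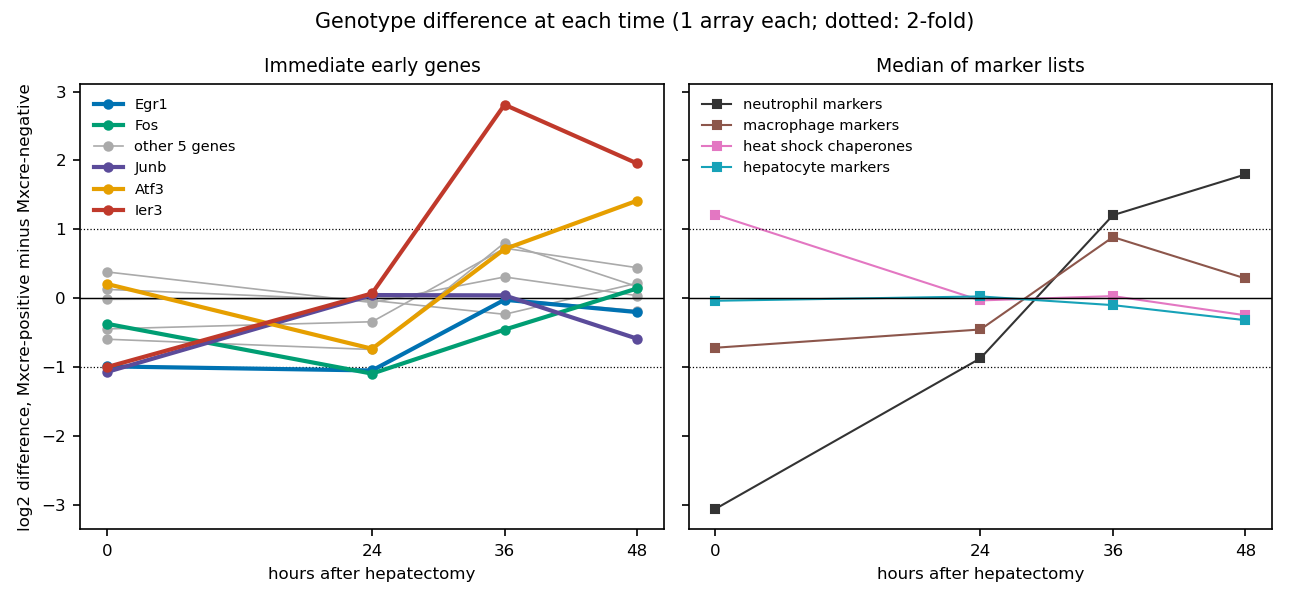
Log2 difference between the genotypes, Mxcre-positive minus Mxcre-negative, at each time, for the 10 genes (left) and for the medians of 4 marker lists (right), with dotted lines at 2-fold. Ier3 stands at 2.81 at 36 h, and the neutrophil median runs through the 4 times at -3.06, -0.87, 1.21 and 1.80.

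Other genes of the same pathways were read from lists chosen with earlier results known, for comparison with the 10 members. Their 24 h counts stand beside 4.43% of all genes called higher and 5.26% called lower, and their medians beside -0.03 over all genes. Of 14 other Fos, Jun, Atf and small Maf genes tested, 0 rose and 0 fell at 24 h (median 0.25), and at 36 h Fosl2, another Fos relative and above background on 7 of the 8 arrays, rose (1.36 ± 0.26, adjusted p = 0.0351) and Batf2 fell (-0.75 ± 0.14, adjusted p = 0.0324). Of 13 other Egr and Klf genes and Egr corepressors, Egr2, the close relative of Egr1, rose 5.09-fold at 24 h (2.35 ± 0.26, adjusted p = 0.0227). Klf15, a metabolic regulator of fasting liver, fell in that list (-1.56 ± 0.18, adjusted p = 0.0232), and so did Klf13 (-1.23 ± 0.18, adjusted p = 0.0294).

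Of 37 other immediate early genes 6 rose and 1 fell at 24 h (median 0.55). Among them were Ier5 (3.16-fold, adjusted p = 0.0179), the antiproliferative gene Btg2 (2.63-fold, adjusted p = 0.0251) and the neutrophil chemokine Cxcl1 (5.01-fold, adjusted p = 0.0493), while the kinase gene Pim3 fell (-0.74 ± 0.14, adjusted p = 0.0449). Of 16 genes of serum response factor, its partners and MAP kinase feedback, 3 rose and 0 fell, all dual specificity phosphatases that switch MAP kinases off. Dusp8, not well above background on 1 of the 8 arrays, rose 13.1-fold (3.71 ± 0.35, adjusted p = 0.0179), Dusp4 rose 2.66-fold (adjusted p = 0.0405) and Dusp10 2.71-fold (adjusted p = 0.0417).

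Of 20 AP-1 and Egr1 targets 5 rose and 0 fell at 24 h, with a list median of 1.11. Among them were the platelet-derived growth factor gene Pdgfa (3.72-fold, adjusted p = 0.0179), osteopontin Spp1 (7.12-fold, adjusted p = 0.0310) and the urokinase receptor Plaur (12.8-fold, adjusted p = 0.0499). A further gene of the 5, thrombospondin Thbs1, exceeded background on just 3 arrays. Its lowest levels were those at 0 h, at -6.25 in Mxcre-negative and -6.77 in Mxcre-positive liver. Its call carries little weight, and no fold is given for it. Of 11 Myc partners and antagonists 0 rose and 2 fell, both antagonists that compete for Max, Mxi1 (-0.68 ± 0.13) and Mxd1 (-0.86 ± 0.17, adjusted p = 0.0449 for both). Of 23 Myc targets of growth and biosynthesis 5 rose and 0 fell, among them the polyamine enzyme Odc1 (1.78-fold, adjusted p = 0.0277) and the nucleolar protein gene Nop58 (1.76-fold, adjusted p = 0.0277).

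Over the 8 arrays, the levels of Egr1 were most like those of Lsm11 and Fos (Pearson r = 0.98 for both) among 2187 genes that were above background throughout and varied by an SD of at least 0.5. Those of Fos were most like Egr1 and Krt7, those of Jun most like Pakap and 9130401M01Rik (r = 0.99 for both), and those of Junb most like the serum amyloid genes Saa1 and Saa3 (r = 0.98 for both). Jund was nearest to Tubb5 and Cxcl14, Atf3 to Epha2 and Slc25a30, Klf6 to Nedd9 and Enc1, and Myc to Cdc42ep1 and Relb, all at r between 0.97 and 0.99. Ier3 was nearest to Pf4 and Zbtb24 (r = 0.99 for both). For Fosb the nearest were Rasgrp4 and Lrrc8e (r = 0.96 for both). Among the members themselves r ran from -0.43 for Fosb with Junb to 0.98 for Egr1 with Fos. All these correlations rest on the same 8 arrays and on the common step between 0 h and later, so they are a description.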

How the data were processed

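Livers were profiled on Agilent single-colour arrays of 41174 probes, and the authors deposited scanner output made with Feature Extraction 10.7.3.1, per the file headers, in which the processed signal is a background-subtracted intensity. Per the submitters' processing notes the tool is Agilent Feature Extraction 10.7. The deposited matrix of log2 values was used only as an alternative: its 8 columns share a median of 5.51 and each correlated at 0.9994 or more with its own array, so it was read as quantile-normalised, though no source used here states its scaling. Log2 processed signal minus the array's 75th percentile was the level. Outlier spots were dropped, spots of a probe averaged, 118 probes without a value on some array left out, 26839 probes named through RefSeq transcripts, and the probe with the highest mean took a gene's place. Of 18316 genes, 14142 were well above background on at least 2 of 8 arrays.

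A linear model of time and genotype (limma 3.58.1, R 4.3.3) had 3 residual degrees of freedom, and its interaction form 2. Adjusted p-values are Benjamini-Hochberg over all genes tested, at a threshold of 0.05. Samples entered groups by their titles and genotype labels. The script was tested on simulated data. The members, lists and motifs were chosen with earlier results of these data known. The named genes are all members, the 2 genes nearest to each by correlation, and from each list the 4 with the smallest p at 24 h, the 2 with the smallest p for genotype and those called, of which the text gives a part, and 1 listed gene is not reported here. Alternatives were other background corrections, scalings, filters, probe rules and sets of arrays, the Y-linked covariate and, for motifs, the bases before the start alone. The number of arrays limits the precision.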

Additional observations from a re-analysis of the deposited data

Results flagged for a closer look

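Myc and Klf6 had genotype differences of one sign at 0 and 24 h and of the other sign at 36 and 48 h, which held for 16.3% of all genes tested. For Myc the difference, Mxcre-positive minus Mxcre-negative, was -0.5965 and -0.7457 before the switch and 0.8047 and 0.1683 after it, on the log2 scale and in order of time. For Klf6 it was -0.4468 and -0.3428 before and 0.7253 and 0.4428 after. Each rests on 1 array a genotype, and the switch was not tested. Neutrophil markers switched at the same point, with medians of -3.06 and -0.87 before it and 1.21 and 1.80 after it, and so did macrophage markers, at -0.72 and -0.45 before it and 0.89 and 0.29 after it. The Y-linked signal differed between the genotypes at 36 and 48 h, at -6.47 and -6.63 in Mxcre-positive liver against -1.56 and -0.76 in Mxcre-negative liver. The part of these in the switch was not tested, and the slide, which changes between 24 and 36 h, cannot be told apart from it. The second Klf6 probe showed it too, at 0.15, 1.40, 2.08 and 2.01 at 0, 24, 36 and 48 h in Mxcre-positive liver and 0.53, 1.89, 1.39 and 1.52 in Mxcre-negative liver. The Myc probes differed at 48 h. Another Myc probe kept the switch there, at -0.53 in Mxcre-positive and -0.73 in Mxcre-negative liver. The dimmest Myc probe did not, at -3.54 in Mxcre-positive and -3.30 in Mxcre-negative liver.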

How the results depend on the processing

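The number of members called depended on the setting. At 24 h against 0 h it was 5, beside 1370 of all 14142 genes. It became 8 with genes above background on all 8 arrays only (2047 of all 12128 genes). It was also 8 with an intensity trend and robust variance (2116 of all 14142 genes), Atf3, Myc and Klf6 joining both times. It became 0 with the Y-linked covariate (1 of all 14142 genes) and 0 with the first slide alone (0 of all genes). With any 1 array left out it was below 5, and fewer of all genes were called too. At 36 h and 48 h it was 6, and fewer at either time with any 1 array left out, where calls over all genes fell too. Normexp background correction left 1 member called at each of the 3 times, and 25, 22 and 79 of all 14128 genes at 24, 36 and 48 h, beside 1370, 2329 and 2507 of 14142 in the reported fit. It turned Fos to -0.1208 at 36 h and -0.3399 at 48 h. The Junb difference between the genotypes at 0 h became 0.2810, but the other Junb probe then stood for the gene. In the reported processing that probe read 3.75 in both livers at 0 h. On 6 arrays a few spots had a local background above their signal, with signal minus background as low as -20930 units, and after that correction the 10th percentile of the signal lay between 66.3 and 499 units depending on the array. With the local background capped at its 99th percentile, chosen after seeing the data, the range was 64.6 to 82.0 units and no called sign changed, but 3 genotype differences rather than 7 passed 2-fold. Junb, whose other probe then stood for the gene, was at -0.06 at 0 h. It was not called at 24, 36 or 48 h against 0 h. The Fos differences from 0 h shrank to 0.91, 0.71 and 0.66 at those times, and only that at 24 h was called. In all, the capped setting left 6, 5 and 4 members called at 24, 36 and 48 h, beside 1789, 2722 and 2588 of all 14132 genes.

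Of 331 recomputed values for called differences from 0 h, 138 kept their sign but missed the threshold, 97 of them with 1 array left out. A further 2 changed sign and missed it too, both for Fos under normexp. Over all 1469 recomputed member values 93 changed sign, and apart from those of Fos and Junb above these were differences that the report gives as neither called nor past 2-fold. No member was called for genotype, the interaction or between later times under any alternative run. The interaction could not be fitted without a 0 h array. Motif counts over the bases before the start alone moved for TATAAA, to 1 member, and for GGAAGT, to 2. No paired analysis was possible because each genotype and time has 1 array and the labels give no replicate numbers.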
